A study of Homo sapiens with 18 samples.

Results

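Just outside protein-coding genes, RNA polymerase II (Pol II) leaves ChIP-seq peaks on both sides. The peaks described here have their summit outside every protein-coding gene of RefSeq, over 1 kb and up to 5 kb from the nearest end of one, and are called zone peaks below. They were chosen by the summit positions in the authors' deposited peak lists, and number 46517 of 594257 peaks over 16 immunoprecipitated libraries. The other peaks were 208630 edge peaks (summit within 1 kb of a gene end), 209135 interior peaks (deeper inside a gene) and 129975 distal peaks (further outside). Each zone peak was assigned to its nearest gene end. Where both numbered Pol II Control libraries had a summit within 1 kb of only 1 end of a gene, that end was read as the start, and zone peaks beyond it were called upstream and those beyond the other end downstream. These values of the Control libraries chose the sides, so a start with a Pol II peak is a condition of the side and not a result.

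All libraries came from HCT116 INTS11-AID, a human colon cancer cell line whose INTS11 protein carries an auxin-inducible degron, a tag that leads to the protein's degradation when auxin (IAA) is added. Control libraries carry the same tag and differ by the IAA label alone, and the labels do not say whether the line is a single clone. Antibodies against Pol II, against tyrosine 1 phosphorylation of its C-terminal domain (Tyr1P) and against serine 2 phosphorylation (Ser2P) each had 2 Control and 2 IAA libraries with replicate numbers. A further 4 Pol II libraries without numbers were labelled Control, IAA, EGF (epidermal growth factor) and IAA+EGF, and 2 inputs were used only to remove peaks. The labels give all libraries 1 protocol, which names serum withdrawal over 14 h, EGF (30 min at 100 ng per µl), IAA (1 h at 500 µM) and interferon beta (1 h, 2000 U). Nothing says that the numbered libraries came from separate cultures, so the spread between them may be technical. For the unnumbered libraries labelled IAA and EGF, title and file name give different treatments, and they are called by label. The degron acts on protein, which peaks cannot check. A Pol II edge peak stood in both Control libraries at 11 of 22 colon epithelial genes, 1 of 17 blood cell genes and 6 of 16 neuron genes.

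As background, most active promoters also fire in the antisense direction and give short upstream transcripts. Downstream of a gene, Pol II runs past the polyadenylation site before it terminates, and serine 2 phosphorylation is known to be highest toward the 3′ ends of genes. INTS11 is the endonuclease of Integrator, a complex known for cutting small nuclear RNA (snRNA) precursors and for ending transcription early at protein-coding genes, enhancers and upstream antisense units. Tyrosine 1 phosphorylation has been linked to Pol II near promoters and on antisense transcripts.

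Promoter sequences help place the zone peaks described below, and 6 are shown from the RefSeq table (GRCh38.p14), 5′ to 3′ on the gene's strand, from 250 bases before the annotated start to 50 after it. The first 3 belong to long noncoding RNAs that start inside the zone of a protein-coding gene, where the zone peak sat on or near the noncoding start. OIP5-AS1 (chr15:41283740-41284039, plus strand) starts beyond the end of CHP1 called downstream. LIPE-AS1 (chr19:42396898-42397197, plus strand) starts beyond the end of LIPE called upstream, and THUMPD3-AS1 (chr3:9396574-9396873, minus strand) beyond the end of SETD5 called upstream. These sides were set by Pol II Control peaks and can differ from the strand at single genes. The other 3 are the promoters of MYNN (chr3:169773146-169773445), PARP2 (chr14:20343385-20343684) and ABT1 (chr6:26596703-26597002), all on the plus strand, whose upstream zones held a Pol II peak in each numbered IAA library but in no numbered Control library. Capitals mark GGGCGG and its reverse complement CCGCCC, the core of the GC box.
OIP5-AS1: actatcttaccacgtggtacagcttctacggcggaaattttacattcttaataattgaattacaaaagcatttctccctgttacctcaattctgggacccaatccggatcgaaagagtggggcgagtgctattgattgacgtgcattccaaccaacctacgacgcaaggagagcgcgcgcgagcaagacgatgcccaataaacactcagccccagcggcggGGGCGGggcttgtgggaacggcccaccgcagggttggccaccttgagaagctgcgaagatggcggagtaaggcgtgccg
LIPE-AS1: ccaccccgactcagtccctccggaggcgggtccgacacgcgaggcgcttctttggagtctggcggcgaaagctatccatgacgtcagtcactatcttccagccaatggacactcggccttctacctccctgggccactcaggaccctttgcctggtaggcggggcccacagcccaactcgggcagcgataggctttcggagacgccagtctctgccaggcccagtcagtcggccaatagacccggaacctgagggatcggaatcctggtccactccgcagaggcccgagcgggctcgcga
THUMPD3-AS1: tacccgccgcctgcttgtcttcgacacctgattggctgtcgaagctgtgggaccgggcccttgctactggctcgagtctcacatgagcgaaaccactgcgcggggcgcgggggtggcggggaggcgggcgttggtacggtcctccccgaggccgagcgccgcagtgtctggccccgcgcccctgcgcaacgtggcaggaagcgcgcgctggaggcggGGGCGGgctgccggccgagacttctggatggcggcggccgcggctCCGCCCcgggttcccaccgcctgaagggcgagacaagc
MYNN: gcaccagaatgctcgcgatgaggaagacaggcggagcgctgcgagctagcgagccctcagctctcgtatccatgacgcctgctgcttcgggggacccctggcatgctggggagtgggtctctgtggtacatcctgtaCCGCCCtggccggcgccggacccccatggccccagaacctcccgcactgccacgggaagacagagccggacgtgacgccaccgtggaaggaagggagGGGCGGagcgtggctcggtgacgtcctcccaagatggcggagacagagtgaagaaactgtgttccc
PARP2: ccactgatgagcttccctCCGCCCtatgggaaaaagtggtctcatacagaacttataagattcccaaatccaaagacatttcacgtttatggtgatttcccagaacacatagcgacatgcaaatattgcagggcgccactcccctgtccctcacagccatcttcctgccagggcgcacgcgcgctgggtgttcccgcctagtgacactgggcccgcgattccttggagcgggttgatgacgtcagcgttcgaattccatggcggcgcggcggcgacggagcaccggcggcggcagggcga
ABT1: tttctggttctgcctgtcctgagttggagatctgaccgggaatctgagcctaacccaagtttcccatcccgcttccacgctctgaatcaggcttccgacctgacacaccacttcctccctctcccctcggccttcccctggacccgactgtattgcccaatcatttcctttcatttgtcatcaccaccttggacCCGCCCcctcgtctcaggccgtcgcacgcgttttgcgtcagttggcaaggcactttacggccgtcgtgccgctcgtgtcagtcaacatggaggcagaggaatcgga

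The GC box was found in 45.03% of all 34961 promoters of that table on either strand, and in 74.0% of the 5554 promoters available for oriented genes with an open upstream zone. It stood in 60 of the 75 promoters available for genes with a gained upstream Pol II end (gained is defined below), or 80.0%, in 88.0% of 100 for Tyr1P and in 70.0% of 437 for Ser2P. TATAAA or its reverse complement TTTATA, the TATA box letters, stood in 11.5% of all promoters and in 4.97% of those of the oriented genes, against 1 of 75, 2 of 100 and 20 of 437 promoters of the gained sets. None of the 6 promoters shown holds it. A match describes letters in the window and was not read as a bound site.

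Of 19974 protein-coding genes, 10200 could be oriented. A strand was given by the RefSeq promoter table for 8423 of these, and 8232 (97.7%) had the same direction. The open zone, meaning bases 1 to 5 kb outside a gene end and nearer to it than to any other, spanned 24.0 Mb at 6822 upstream ends and 23.3 Mb at 7232 downstream ends, so the 2 sides offered almost equal room. Because the sides come from Pol II Control peaks, comparisons with Pol II were tested with sides from the RefSeq strand instead. Counts of a list also move with its depth, which was estimated at 2.94 to 8.05 fragments per kb for Pol II and 6.59 to 7.44 for Tyr1P. For Ser2P the 2 Control libraries stood apart, at 13.6 and 3.29 fragments per kb, against 9.34 and 10.5 with IAA.

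Pol II zone peaks with a side lay mostly downstream of genes in the numbered Control libraries, and mostly upstream in the numbered IAA libraries. Control replicates 1 and 2 had 191 and 227 upstream and 337 and 520 downstream zone peaks. The IAA replicates had 253 and 513 upstream and 164 and 292 downstream zone peaks. With these sides, taken from the Pol II Control peaks, both IAA libraries were above both Control libraries upstream and below both downstream. On average the upstream number was 1.83 times and the downstream number 0.532 times that of Control. The upstream log2 ratio, 0.87 with all 4 libraries, was 0.28 without IAA replicate 2. With sides from the RefSeq strand, the upstream numbers overlapped, at 307 and 383 in Control and 314 and 602 with IAA (log2 ratio 0.41, exact permutation p = 0.667). The downstream numbers by strand did not, at 418 and 654 in Control and 232 and 393 with IAA. At a deposited −log10 q of at least 5 the upstream numbers overlapped as well (log2 ratio 0.53, exact permutation p = 0.667). The number of zone peaks regardless of side was 967 and 1368 in Control and 730 and 1293 with IAA, and these overlapped. Of these zone peaks, 439 and 621 in Control and 313 and 488 with IAA had no side.

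The downstream share of Pol II zone peaks with a side was 66.7% ± 4.09 (SD, n = 2) in Control and 37.8% ± 2.16 (SD, n = 2) with IAA, a difference of -28.9 percentage points. With sides from the RefSeq strand, the shares were 57.7% and 63.1% in Control and 42.5% and 39.5% with IAA, a difference of -19.4 points (two-sided exact permutation test, p = 0.333). This p is the smallest that 2 libraries against 2 can give, so no IAA comparison of these libraries can pass 0.05. The groups did not overlap under either way of setting sides. They did overlap once the Control-labelled and IAA-labelled unnumbered libraries joined, where the difference was -19.5 points (exact permutation test of 3 against 3, p = 0.3, where the smallest possible is 0.1). With lists cut to equal length the difference was -21.4 points. Depth was 2.94 and 5.72 fragments per kb in Control and 5.04 and 6.06 with IAA.

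**Figure D1:**
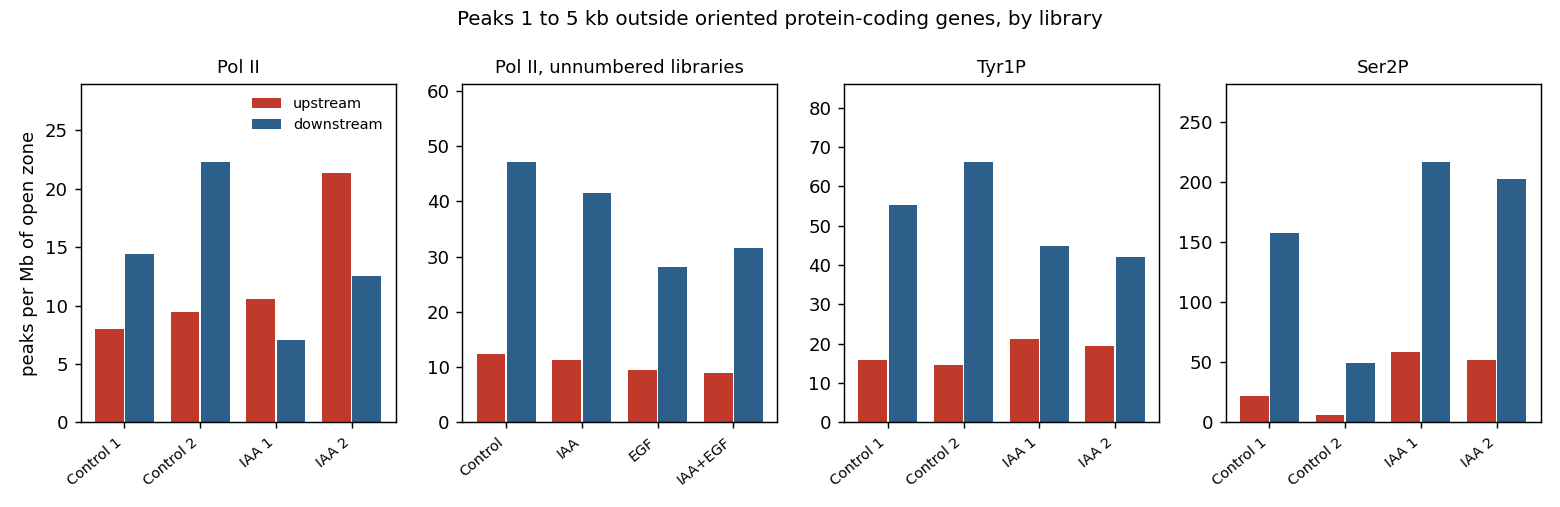
Zone peaks per Mb of open zone (y axis, a separate scale in each panel) upstream (red) and downstream (blue) of oriented genes in each of the 16 libraries. Upstream bars exceed downstream bars in the 2 numbered Pol II IAA libraries only, at 10.5 and 21.4 per Mb against 7.03 and 12.5.

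For Tyr1P the lower downstream number held with either way of setting sides, and the higher upstream number did not. Upstream zone peaks numbered 378 and 352 in Control and 512 and 469 with IAA, 1.34 times the Control mean, with sides from Pol II Control peaks. With sides from the RefSeq strand they were 701 and 667 against 733 and 664 and overlapped (log2 ratio 0.03, exact permutation p = 1). At a deposited −log10 q of at least 5, the log2 ratio was 0.07 in place of 0.43, and the groups overlapped too (exact permutation p = 0.667). Downstream, the 2 Control libraries had 1286 and 1545 and the IAA libraries 1045 and 979, 0.715 times the Control mean, and these did not overlap. The downstream share was 79.4% ± 2.94 (SD, n = 2) in Control and 67.4% ± 0.349 (SD, n = 2) with IAA, a difference of -12.00 points, and -6.68 points with sides from the RefSeq strand (exact permutation test, p = 0.333 in both). Unlike for Pol II, most Tyr1P zone peaks with a side still lay downstream with IAA. When all 4 lists were cut to equal length by the authors' deposited p, the downstream number was higher with IAA (0.37 on the log2 scale) while the downstream share differed by -4.36 points with overlapping groups (exact permutation p = 0.667). Tyr1P depth was similar in all 4 libraries.

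Ser2P had the highest downstream share among the numbered libraries. Its zone peaks numbered 8781 and 8103 with IAA and 5311 in Control replicate 1, but 1702 in Control replicate 2, fewer than in any Tyr1P library. Upstream numbers were 534 and 150 in Control and 1408 and 1241 with IAA. Downstream, Control replicate 1 had 3673, replicate 2 had 1148, and the IAA libraries had 5055 and 4718. Both sides were thus higher in both IAA libraries than in either Control library, 3.87 times upstream and 2.03 times downstream. The Control replicates themselves differed by more than the IAA libraries did. The downstream share was nearly free of that spread, at 87.9% ± 0.804 (SD, n = 2) in Control and 78.7% ± 0.679 (SD, n = 2) with IAA, a difference of -9.18 points (exact permutation test, p = 0.333). With equal list lengths the Ser2P downstream number was lower with IAA, by -0.64 on the log2 scale, whereas the share still differed by -7.24 points. The upstream log2 ratio, 1.95 with all libraries, was 1.31 without Control replicate 2, the shallow library, 3.14 without Control replicate 1 and 0.20 with equal list lengths, and the downstream one was 0.41 and 2.09 without those libraries.

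**Figure D2:**
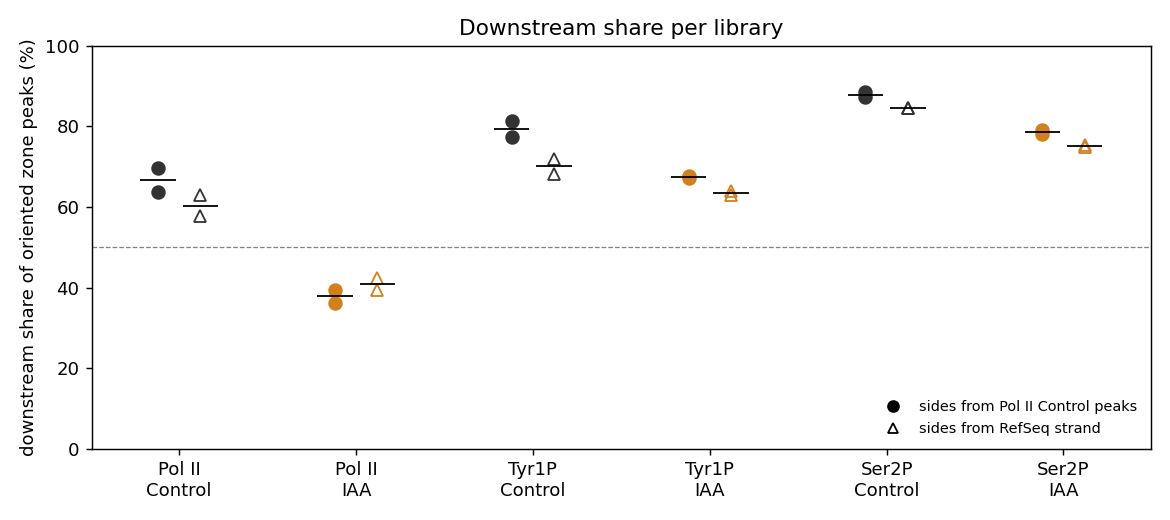
Downstream share (y axis, percent of zone peaks with a side) in the 12 numbered libraries, with sides from Pol II Control peaks (circles) or the RefSeq strand (triangles), Control in black and IAA in orange. Short bars are means of 2 libraries and the dashed line marks 50%. For each antibody the IAA libraries lie below the Control libraries.

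Among the numbered libraries, the antibodies differed in the share of their listed peaks that lay in the zone and in the side of these peaks. Zone peaks made up 4.77% ± 0.686 (SD, n = 4) of a Pol II list, 7.72% ± 0.294 (SD, n = 4) of a Tyr1P list and 10.9% ± 2.52 (SD, n = 4) of a Ser2P list. All 3 pairwise differences in this share, 2.95 points for Tyr1P over Pol II, 6.11 for Ser2P over Pol II and 3.16 for Ser2P over Tyr1P, had p = 0.0556 by an exact permutation test within treatment. That is the smallest p of its 36 arrangements, and it stayed 0.0556 after Benjamini-Hochberg adjustment over the 3 pairs. With sides from the RefSeq strand, the downstream share was higher for Tyr1P than for Pol II by 16.1 points, for Ser2P than for Pol II by 29.2 and for Ser2P than for Tyr1P by 13.1 (each exact permutation p = 0.0556, adjusted 0.0556). Among numbered libraries, none overlapped the same treatment of another antibody in downstream share, but the unnumbered Pol II library labelled Control, at 78.7%, lay within the Tyr1P Control range, and the one labelled IAA, at 78.0%, above both Tyr1P IAA libraries. With lists of equal length the zone share of Ser2P over Tyr1P differed by 2.33 points (exact permutation p = 0.111).

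Against the rest of the list, the zone share of Pol II was 4.30% and 5.04% in Control and 4.12% and 5.61% with IAA, and for Tyr1P 7.34% and 8.05% against 7.75% and 7.74%. These overlapped (exact permutation p = 1 for each). For Ser2P it was 14.3% and 11.1% in Control and 8.87% and 9.16% with IAA (exact permutation p = 0.333). Ser2P interior peaks were 11891 and 3151 in Control and 54576 and 47452 with IAA, so zone peaks relative to interior peaks were 0.338 times as frequent with IAA. Relative to edge peaks, Ser2P zone peaks were 1.86 times as frequent with IAA, but -0.44 on the log2 scale with equal list lengths.

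Zone peaks thinned with distance from the gene, most steadily downstream for Tyr1P and Ser2P. Upstream, the Pol II and Tyr1P Control libraries were lowest at 3 to 4 kb and higher again at 4 to 5 kb. Downstream Ser2P peaks in Control replicate 1 went from 263 per Mb at 1 to 2 kb to 167, 106 and 61.2 per Mb in the next 3 bins of 1 kb. With IAA the decline was shallower, from 299 to 136 per Mb in replicate 1 and from 279 to 127 in replicate 2. In the bin at 4 to 5 kb this left 13.6% and 13.7% of downstream Ser2P peaks with IAA against 8.41% and 6.10% in Control. The 2 groups did not overlap in that bin.

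The gap between Control and IAA in downstream Pol II was widest nearest the gene. At 1 to 2 kb the Control libraries had 20.3 and 32.1 peaks per Mb and the IAA libraries 8.14 and 15.4. At 4 to 5 kb the values were 10.1 and 15.8 against 6.73 and 10.9, and no longer separated. Tyr1P had 89.4 and 110 per Mb in Control and 75.6 and 69.4 with IAA at 1 to 2 kb, and 30.7 and 32.7 against 21.2 and 20.8 at 4 to 5 kb. Tyr1P groups did not overlap in either bin.

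Upstream of genes, with sides from Pol II Control peaks, Pol II and Tyr1P were higher with IAA in the nearer bins, and Ser2P in all 4. At 2 to 3 kb, Pol II stood at 6.65 and 8.44 per Mb in Control and 11.2 and 25.3 with IAA, and Tyr1P at 13.0 and 11.5 against 21.9 and 21.7. At 4 to 5 kb the Control and IAA values overlapped for Pol II (6.38 and 6.74 against 5.10 and 7.66) and for Tyr1P (13.3 and 12.029 against 14.4 and 10.9). Ser2P stood there at 12.029 and 2.73 in Control and 41.2 and 36.6 with IAA. The median distance of an upstream Tyr1P peak from its gene was 2122 and 2072 bp in Control and 2301 and 2219 bp with IAA.

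**Figure D3:**
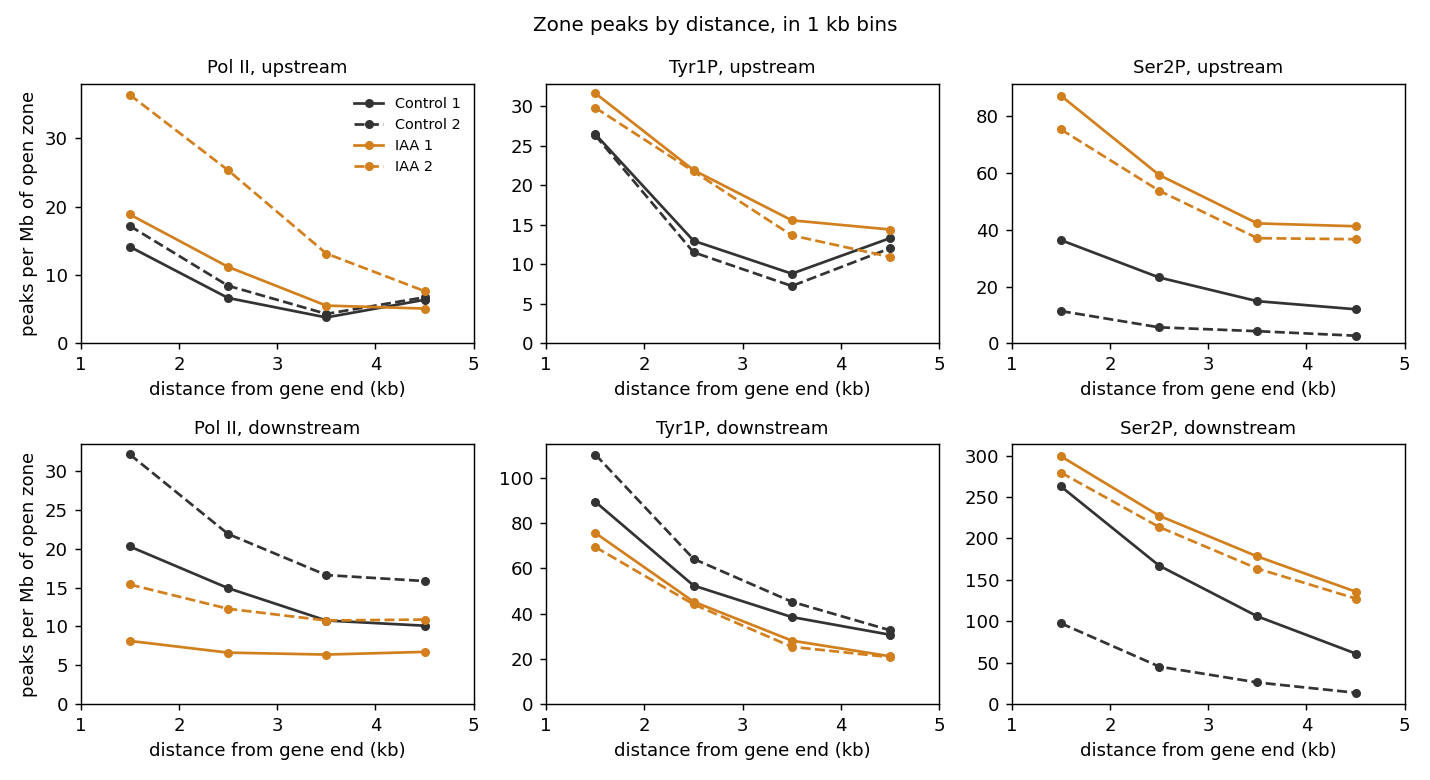
Zone peaks per Mb of open zone (y axis, its own scale in each panel) in 1 kb bins of distance from the gene end (x axis), for upstream (top) and downstream (bottom) zones and the 12 numbered libraries. In the upstream panels of Pol II and Tyr1P the IAA lines (orange) lie above the Control lines (black) at 1 to 4 kb and meet them at 4 to 5 kb.

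Zone peaks were weaker than the other peaks of their list for Pol II Control and for Tyr1P. The height of a peak is given here as the fragments stacked at its summit, solved from the authors' deposited fold and p. The median stack of zone peaks was 17 and 19 in the Pol II Control libraries against 23 and 27 for other peaks, and 27 to 30 against 37 to 40 over the Tyr1P libraries. Upstream zone peaks were higher than downstream ones, with medians of 47.5 and 47 against 25 and 26 in Tyr1P Control. For Ser2P with IAA the order against other peaks was the reverse, 36 and 41 fragments in the zone against 25 and 29 elsewhere.

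Most Pol II zone peaks met a Tyr1P peak, while most Tyr1P zone peaks met no Pol II peak. Of the Pol II zone peaks, 96.6% and 91.6% in Control replicates 1 and 2 and 81.9% and 70.1% with IAA shared at least 1 bp with a peak of the same-numbered Tyr1P list. For upstream zone peaks with IAA the share was 73.1% and 53.2%, and for downstream ones 84.8% and 84.2%. In the other direction, 31.3% and 38.4% of Tyr1P zone peaks in Control and 23.1% and 37.9% with IAA met a Pol II peak, whose lists were shorter. Sharing between replicates was uneven, and not only where depth differed. Of the zone peaks, 58.3% in Pol II Control replicate 2 met a peak of replicate 1, and 82.0% the other way round. For Ser2P Control these values were 28.3% of replicate 1 and 97.6% of replicate 2. For Pol II with IAA, at the closer depths of 5.04 and 6.06 fragments per kb, they were 78.1% and 42.8%.

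Gene ends were compared next. An end counted as gained when both IAA libraries of an antibody, but no Control library of it, held a zone peak there, and as lost in the reverse case. Over all 28716 ends with open zone, Pol II gained 157 (0.547%) and lost 262 (0.912%), Tyr1P gained 259 (0.902%) and lost 451 (1.57%), and Ser2P gained 2209 (7.69%) and lost 103 (0.359%). A zone peak in all 4 libraries was held by 289 ends for Pol II (1.01%), 1073 for Tyr1P (3.74%) and 1186 for Ser2P (4.13%).

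Among ends with a side, most Pol II gains were upstream and most losses downstream. Pol II gained 96 of 6822 upstream ends (1.41%) and lost 46 (0.674%), and downstream it gained 15 of 7232 ends (0.207%) and lost 94 (1.3%). Tyr1P gained 132 upstream ends (1.93%) and lost 73 (1.07%), and downstream gained 50 (0.691%) and lost 206 (2.85%). Ser2P gained on both sides, 560 upstream (8.21%) and 935 downstream (12.9%), and lost 13 (0.191%) and 71 (0.982%). A zone peak in all 4 libraries stood at 71 upstream (1.04%) and 87 downstream ends (1.2%) for Pol II, 155 (2.27%) and 446 (6.17%) for Tyr1P, and 106 (1.55%) and 807 (11.2%) for Ser2P.

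These counts move with the q threshold, the way of setting sides, list length and single libraries. At a deposited −log10 q of at least 5, Pol II gained 50 and lost 41 upstream ends, and Tyr1P gained 73 and lost 82, the reverse of the order above. With sides from the RefSeq strand, upstream gains and losses were nearly equal in number, at 95 and 76 for Pol II and 131 and 126 for Tyr1P, while downstream Pol II gained 25 and lost 121 and Tyr1P gained 66 and lost 226. With lists of equal length, Pol II gained 78 and lost 26 upstream ends and gained 11 and lost 45 downstream, the same order as above. Tyr1P then gained 140 and lost 54 upstream, but gained 103 and lost 69 downstream, and Ser2P gained 57 and lost 36 upstream and gained 103 and lost 257 downstream, so that the downstream order of both was the reverse. A call needs both libraries, so leaving 1 out raised every count. Gained upstream Pol II ends numbered 297 without IAA replicate 1, and lost downstream Pol II ends 265 without Control replicate 1 and 151 without IAA replicate 2. Lost downstream Tyr1P ends numbered 505 without Control replicate 1, and lost downstream Ser2P ends 511 without Control replicate 2.

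**Figure D4:**
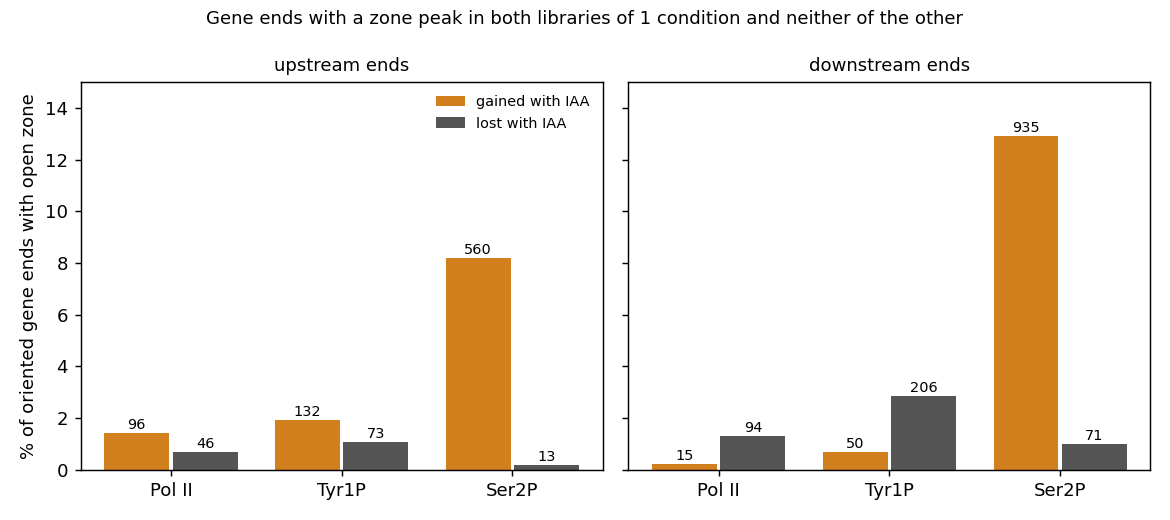
Percent of oriented gene ends with open zone (y axis) at which a zone peak was gained (orange) or lost (grey) with IAA, for each antibody, with the number of ends above each bar. With the main settings, gained bars exceed lost bars upstream for all 3 antibodies and downstream for Ser2P alone. For Tyr1P the upstream order is the reverse at a −log10 q of at least 5, and with lists of equal length the downstream order is the reverse for Tyr1P and Ser2P.

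A gained upstream peak was in most cases a separate peak and not the edge of a Control peak. The summit of a gained upstream peak was covered by a Control peak of the same antibody at 2 of 96 ends for Pol II, 8 of 132 for Tyr1P and 17 of 560 for Ser2P. The median distance to the nearest Control summit was 1777, 2320 and 2132 bp. The rule itself puts a Pol II Control summit at the start of every oriented gene, and for the other antibodies 1 of the 132 Tyr1P and 24 of the 560 Ser2P ends had no Control summit within 5 kb. Downstream, no such peak is required, and 72 of the 94 lost Pol II ends and 148 of the 206 lost Tyr1P ends had no IAA summit within 5 kb. Of the 935 gained Ser2P downstream ends, 509 had no Control summit within 5 kb. Genes with a lost downstream Pol II end had a median length of 19.7 kb, against 38.0 kb over all downstream ends. Most of all those ends held no Pol II zone peak in Control, and the length of genes that held one was not measured. Lost downstream Tyr1P ends had a median of 23.1 kb. Gained and lost upstream Pol II ends had 30.2 and 27.6 kb, against 39.2 kb over all upstream ends. Gained downstream ends had 77.2 kb for Pol II, 41.8 kb for Tyr1P and 42.8 kb for Ser2P.

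Each antibody had libraries of its own, and their calls were set side by side. Of the 96 upstream ends gained by Pol II, 47 (49.0%) were also gained by Tyr1P, which is 35.6% of its 132, and 28 (29.2%) by Ser2P, which is 5.0% of its 560. Among lost downstream ends, 12 were shared by Pol II and Tyr1P, 12.8% of 94 and 5.83% of 206. At 61 of the 71 upstream ends and 85 of the 87 downstream ends with a Pol II peak in all 4 libraries, Tyr1P also had one in all 4.

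All 3 antibodies gained 19 of the 6822 upstream ends. Taken singly, Pol II gained 96 of these ends, Tyr1P 132 and Ser2P 560. Among these are FOXO3, a forkhead transcription factor, CCNL1, a cyclin linked to splicing, STK40, a kinase, SYNCRIP, an RNA-binding protein, CHAC1 and TRIB3, genes of the stress response, CYP24A1, the vitamin D hydroxylase, ADCY9, an adenylate cyclase, and KMT5B, a histone methyltransferase. These were singled out after their values were seen. At FOXO3 the stacks with IAA were 50 and 84 for Pol II, 72 and 61 for Tyr1P and 148 and 162 for Ser2P, with summits 1165 to 1285 bp upstream. CCNL1 had 40 and 61 for Pol II, 94 and 78 for Tyr1P and 150 and 128 for Ser2P, 2763 to 2901 bp upstream. The summits of the 3 antibodies thus lay close together at both genes, and no Control library listed a zone peak there.

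For Pol II and Tyr1P, though not for Ser2P, the highest stacks among ends gained by all 3 antibodies lay beside snRNA genes, whose transcripts Integrator is known to process. The U4 gene RNU4-2 lies at the upstream end of SIRT4, a mitochondrial sirtuin gene, and the U4 gene RNU4-1 lies inside SIRT4. The gained zone peaks lie outside, upstream of SIRT4. Pol II summits 2013 and 1685 bp from RNU4-2 had stacks of 215 and 287 in the IAA libraries, Tyr1P had 228 and 246, and Ser2P 38 and 35. None of the 6 Control libraries listed a zone peak at that end. A high stack is not a high enrichment. The deposited fold over local background at SIRT4 was 2.5 and 2.21 for Pol II and 2.21 and 2.07 for Tyr1P. These folds stood at percentiles 1.43, 1.33, 2.87 and 1.77 of their own lists, counted from the lowest. All 3 antibodies gained 2 of the 7232 downstream ends, and the U5 gene RNU5D-1 lies downstream of 1 of them, ARMH1. The highest Pol II stacks there were 236 and 305 with IAA, 1664 and 1659 bp from RNU5D-1, with 240 and 237 for Tyr1P and 95 and 90 for Ser2P. The Pol II folds at ARMH1 were 3.77 and 3.1, at percentiles 14.02 and 10.72. The highest Ser2P stacks in this group were 202 and 207, at the end of NTN3, a netrin gene, that Pol II Control peaks marked as downstream. Such a side can differ from the strand at a single gene. The Ser2P folds at NTN3 were 1.75 and 1.56, at percentiles 0.59 and 0.24.

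Such genes are rare near the zone. An snRNA gene lay within 5 kb of 0.072% of upstream and 0.077% of downstream open positions. It lay within 5 kb of a zone peak at 1 of 96 upstream and 1 of 15 downstream Pol II gained ends, at 1 of 132 and 1 of 50 for Tyr1P, and at 3 of 560 and 2 of 935 for Ser2P. At the lost ends it was 0 for each antibody and side, and at ends held in all 4 libraries it was 1, at AP2S1 for Ser2P. The gene there, SNAR-E, was counted by its RefSeq class and lay 4616 bp from a summit of Ser2P Control replicate 1. The further Ser2P ends were upstream of TAF12, beside the U11 gene RNU11 (stacks 140 and 144), upstream of KIF2C, 4115 bp from RNU5D-1, and downstream of CYB5R3, beside the U12 gene RNU12 (stacks 183 and 193). This class was examined after its values were seen. In the unnumbered Pol II libraries, SIRT4 and ARMH1 had zone peaks at these ends in those labelled EGF and IAA+EGF and in neither of those labelled Control and IAA.

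By the fixed rule on peak rank, the leading upstream ends gained by Pol II were MYNN, PARP2, ABT1 and ACTR6. At MYNN, a zinc finger gene, the stacks were 81 and 129 with IAA at 1091 and 1115 bp, and at PARP2, a poly(ADP-ribose) polymerase gene, 148 and 221 at 1017 and 1025 bp. Both Tyr1P IAA libraries had zone peaks at these ends too, of 104 and 121 near the Pol II summits of MYNN, and of 116 and 115 at PARP2, further out at 2211 and 2199 bp. Neither Control library of either antibody had one. ABT1, a basal transcription activator gene, had 36 and 68 for Pol II and 45 and 53 for Tyr1P with IAA, again with none in Control. At ACTR6, an actin-related chromatin gene, peaks of both Control lists covered the summits, with the nearest Control summits 47 and 65 bp from the gene.

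The 15 downstream ends gained by Pol II were led by NFKB1, IRF2, LMX1B and HIP1, at low stacks. NFKB1, an NF-kappa-B subunit gene, had 15 and 12 with IAA, and LMX1B, a homeobox gene, 15 and 15. At both, Tyr1P had zone peaks in all 4 libraries, of 18 to 25 fragments at NFKB1 and 19 to 30 at LMX1B. IRF2, an interferon regulatory factor gene, had 9 and 12 for Pol II and 21 and 14 for Tyr1P with IAA and none in Control for either. At HIP1 Control peaks covered the position, with summits just over 5 kb out.

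Of the 4 leading upstream genes, 3 have a small RNA gene transcribed by RNA polymerase III beside the gained peak. TRV-AAC1-1, a valine tRNA gene, lay 3 and 0 bp from the MYNN summits, TRY-GTA6-1, a tyrosine tRNA gene, 62 and 117 bp from those of ABT1, and RPPH1, the RNase P RNA gene, 453 and 461 bp from those of PARP2. Over all 96 gained upstream Pol II ends, 4 had a tRNA gene within 500 bp of a zone peak (MYNN, TRIM7, ABT1 and LASP1), or 4.17%, against 0.043% of upstream open positions. For Tyr1P it was 3 of 132 and for Ser2P 0 of 560. Of the 46 lost upstream Pol II ends 0 had one, and of the 94 lost downstream ends 2, beside NBPF genes that have near-identical copies. Ends held in all 4 libraries also had tRNA genes nearby, upstream at 1 of 71 for Pol II, 2 of 155 for Tyr1P and 2 of 106 for Ser2P, as did 1 of 73 lost upstream Tyr1P ends. This class too was chosen after its values were seen.

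Lost upstream ends were led by EP300, the acetyltransferase gene, CENPS, a kinetochore gene, SYNM, an intermediate filament gene, and MZF1, a zinc finger gene. EP300 had Pol II stacks of 52 and 58 in Control, 1240 and 1233 bp upstream, and no zone peak with IAA. Tyr1P kept a zone peak there in all 4 libraries, at 133 and 150 in Control and 65 and 69 with IAA. CENPS had 39 and 47 for Pol II and 75 and 70 for Tyr1P in Control and none with IAA for either.

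Downstream, the leading lost Pol II ends were COQ7, a ubiquinone synthesis gene, PARP6, CIMIP5 and RPL29, a ribosomal protein gene. At COQ7 the Pol II stacks were 38 and 48 in Control, 3818 and 3793 bp downstream, with none listed under IAA. The Tyr1P stacks there were 149 and 150 in Control and 58 and 53 with IAA. RPL29 had Pol II stacks of 104 and 112 in Control at 2130 and 2133 bp, and its Tyr1P stacks were 203 and 219 in Control and 72 and 72 with IAA, the first of these at 1117 bp and the other at 2120 bp. In 1 of the Pol II IAA libraries, a peak with its summit elsewhere covered the position at RPL29. At PARP6 the Ser2P end was lost as well, from 105 and 38 in Control to none. Tyr1P there stood at 156 and 160 in Control and 70 and 79 with IAA, so that at COQ7 and PARP6 Tyr1P was still listed, at lower stacks, where Pol II was not.

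**Figure D5:**
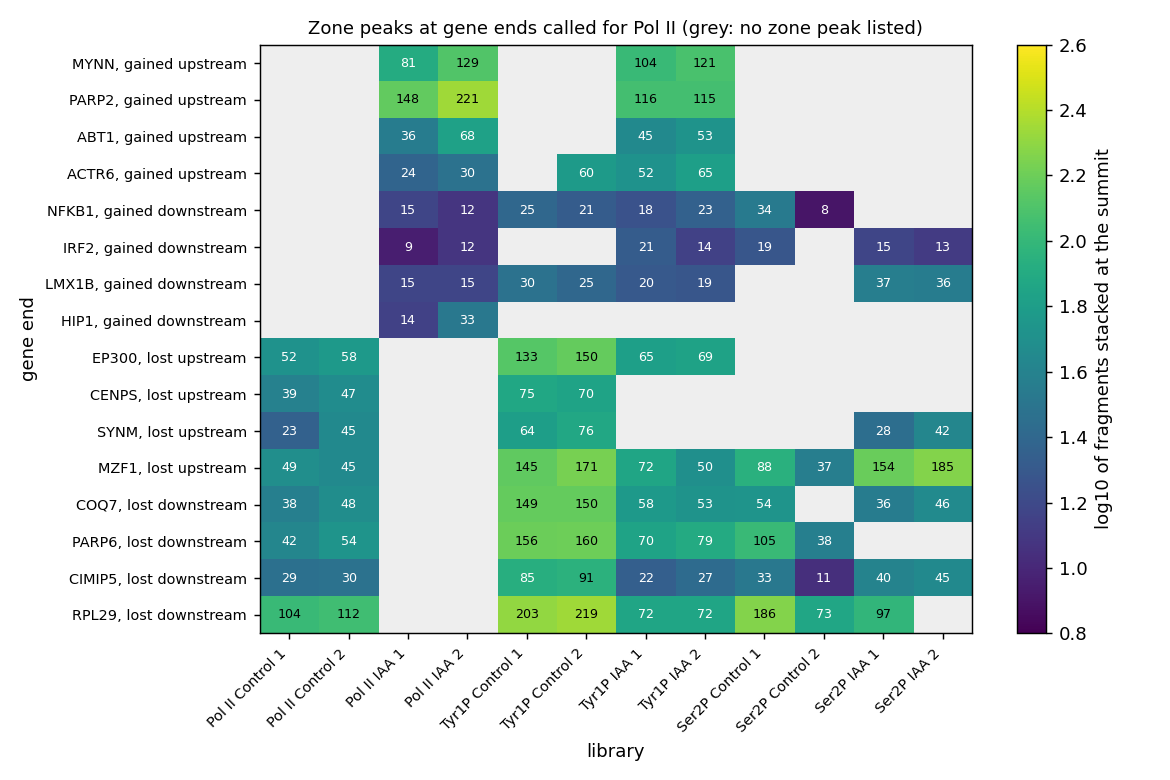
Fragments stacked at the highest zone peak (number and colour, log10 scale) at the 16 gene ends named for gain or loss of Pol II (rows) in the 12 numbered libraries (columns). Grey cells have no zone peak listed, and stacks are not scaled for depth. At COQ7, PARP6 and RPL29 downstream, Tyr1P cells remain filled with IAA at lower stacks.

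Some named ends had their zone peak on the start of a noncoding RNA. Among ends with a zone peak in all 4 libraries, those of Pol II downstream were led by POLDIP3, IFT22, CHP1 and GTF2A1. The peak downstream of CHP1 sat 46 to 115 bp from the OIP5-AS1 start shown above, with Pol II stacks of 47 and 59 in Control and 66 and 128 with IAA. Tyr1P stood at 140 and 169 against 123 and 150. At the end of LIPE, the lipase gene, that Pol II Control peaks marked as upstream, Pol II stacks were 63 and 75 in Control and 48 and 74 with IAA. The summits there lay 78 and 84 bp from the LIPE-AS1 start in Control and 363 and 352 bp with IAA, and those of Tyr1P 65 and 59 against 315 and 344 bp. At SETD5, a gene of a SET domain protein and a lost Ser2P end, the Ser2P stacks were 191 and 73 in Control, 55 and 69 bp from the THUMPD3-AS1 start. A Ser2P peak of each IAA library covered that position with its summit within 1 kb of the gene.

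An annotated noncoding start could be named for few zone peaks. A long noncoding RNA start of the promoter table lay within 500 bp of 3.12% to 6.61% of upstream and 5.96% to 9.76% of downstream zone peaks in the numbered Pol II libraries, against 0.437% and 0.554% of open positions. For Ser2P the shares were 1.92% to 3.33% upstream and 0.953% to 1.39% downstream. Long noncoding RNA genes covered 22.4% of the upstream open zone. They held 30.9% and 29.5% of upstream Pol II zone peaks in Control and 21.7% and 21.4% with IAA, and these groups did not overlap. For Tyr1P the upstream shares were 24.1% and 24.7% against 20.9% and 20.9%. The order was the reverse in the unnumbered Pol II libraries, at 26.5% in that labelled Control and 30.0% in that labelled IAA. Downstream, numbered Pol II shares were 16.6% and 15.0% in Control and 18.3% and 18.5% with IAA, against 11.5% of the open zone.

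The leading Tyr1P gains upstream were GSK3B, a kinase gene, MYNN, AP2A1, a clathrin adaptor gene, and PDX1, a homeobox gene. At GSK3B and AP2A1 a Control peak already covered the IAA summits, and Pol II had zone peaks there in all 4 libraries. PDX1 had stacks of 19 and 18 at 4170 and 4156 bp with IAA, and none in Control or for Pol II. Among the named lost Tyr1P ends, the highest stacks were those downstream of SNX6, a sorting nexin gene, at 406 and 423 in Control, 4911 and 4969 bp out. Peaks of both IAA libraries covered that position with summits 5404 and 5454 bp out, beyond the limit.

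For Ser2P the leading gains were upstream of KYAT3, SP100, PWP1 and RFC3 and downstream of OTUD4, EOGT, CALCRL and STK39. SP100, a nuclear body gene, had stacks of 94 and 100 with IAA at 4188 and 4149 bp, where Tyr1P had zone peaks in all 4 of its libraries, and PWP1, a ribosome biogenesis gene, 81 and 94 at 3113 and 3094 bp. STK39, a kinase gene, had 85 and 75 at 3674 and 3668 bp downstream. No Ser2P Control library listed a zone peak at these ends. The Ser2P libraries held zone peaks in all 4 downstream of POLDIP3, with 216 and 106 in Control and 242 and 281 with IAA.

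Gene groups were read by the same calls, and are to be set beside all ends. Over all 7232 downstream ends, 307 and 457 held a Pol II zone peak in Control and 146 and 260 with IAA, so a lower number of occupied ends in a group is not particular to it. For Tyr1P these were 1104 and 1288 against 911 and 862. Upstream, 457 and 144 of all 6822 ends held a Ser2P zone peak in Control and 1130 and 1011 with IAA. Ser2P gained 560 (8.21%) of all upstream ends and 935 (12.9%) of all downstream ends, so a Ser2P gain alone is not particular to a group. Of 27 downstream ends of cytosolic ribosomal protein genes, 12 and 11 held a Pol II zone peak in Control and 5 and 7 with IAA. Pol II lost 3 of them, including RPL10A and RPL29, and gained 0, while RPS12 and RPSA kept one in all 4 libraries. For Tyr1P the numbers were 13 and 14 against 11 and 10, with RPL3 lost and 0 gained. Ser2P gained 6, among them RPL10A and RPL11, and lost 3.

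Immediate early genes, which serum and growth factors switch on, had 28 upstream and 24 downstream ends. Upstream, Pol II gained 2, ERRFI1 and SPRY2, and lost SPRED2. Tyr1P gained JUND and lost FOS and SPRY4 there, and Ser2P gained 5, DUSP1, DUSP2, FOS, SPRY2 and TIPARP. Downstream, Pol II was found at 7 and 7 ends in Control and 3 and 5 with IAA, with MCL1 and SPRY4 lost and 0 gained. Tyr1P lost ERRFI1 and MCL1 and gained TIPARP downstream, and Ser2P gained 4 and lost FOSB.

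Among 12 downstream ends of glycolysis and housekeeping genes, Pol II stood at 3 and 6 in Control and 1 and 0 with IAA, with HSP90AA1 and HSPA8 lost. Tyr1P stood at 7 and 7 against 6 and 6 of the same 12 ends and neither gained nor lost any. Integrator subunit genes had 7 upstream ends, where Ser2P gained 3, INTS1, INTS4 and INTS6, and Pol II 0. Of 19 upstream ends of cleavage, polyadenylation and termination factor genes, Tyr1P gained PPP1CB and SSU72 and lost RBBP6, and Ser2P gained 4. Among 14 upstream ends of p53 target genes Ser2P gained CDKN1A, DDB2 and TIGAR, and Pol II and Tyr1P gained 0. These Ser2P gains stand beside 8.21% of all upstream ends. Of replication-dependent histone genes, which lie in dense clusters, only 3 upstream and 5 downstream ends had open zone and a side, and Ser2P gained H2BC5 and H4C15 upstream. Colon epithelial genes gave 6 upstream and 5 downstream ends, and Ser2P gained ASCL2 downstream.

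The 4 unnumbered Pol II libraries, with 1 library a label, gave no test. Their downstream shares were 78.7% in the library labelled Control (exact binomial 95% interval 76.4% to 80.8%), 78.0% in that labelled IAA (75.6% to 80.3%), 74.2% in EGF (71.2% to 77.0%) and 77.5% in IAA+EGF (74.7% to 80.1%). These intervals cover counting error only. None had the low share of the numbered IAA libraries. At the 96 upstream ends gained by Pol II in the numbered libraries, a zone peak was listed at 8 in the library labelled Control, 4 in IAA, 15 in EGF and 11 in IAA+EGF. At the 94 lost downstream ends it was listed at 86, 81, 68 and 63. Over all 6822 upstream ends these libraries, in the same order, listed a zone peak at 290, 265, 218 and 200. Over all 7232 downstream ends they did so at 965, 841, 590 and 654. The lost ends were chosen for a zone peak in both numbered Control libraries.

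The limits of the zone fall in a continuous slope. In Pol II Control replicates 1 and 2, 57 and 88 summits lay in the last 100 bp within 1 kb of a gene and 53 and 79 in the first 100 bp beyond it. Around 5 kb the same counts were 19 and 30 inside and 10 and 13 outside. In Ser2P IAA replicate 1 they were 447 and 438 around 1 kb and 124 and 129 around 5 kb. A second gene end lay within 5 kb for 9.82% to 15.5% of zone peaks over the 16 libraries, and their assignment is less certain.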

How the data were processed

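Peaks were measured by ChIP-seq in 16 immunoprecipitated and 2 input libraries of HCT116 INTS11-AID cells. Per the submitters' processing notes, the build was hg38 and the tools were MACS2 2.2.7.1, Bowtie2 2.3.4.1, deepTools 3.5.1, Trim Galore 0.6.6 and Picard 2.25.7. The sources used here do not give their options. Each library has its own deposited peak list, so peaks were called per library. The authors' deposited columns hold a score, a fold enrichment over local background (a ratio), a −log10 p and a −log10 q at the summit, and the summit's offset in bases. The lowest deposited −log10 q was 1.30792, and reads were not used here.

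From these lists, peaks overlapping an input peak by 1 bp were removed (0.276% to 2.31% of a list), and summits were placed against protein-coding genes of RefSeq GRCh38.p14. The stack at a summit and the fragments per kb were solved from the deposited fold and −log10 p, and stacks were not scaled for depth. Overlap with another list needed 1 bp. Comparisons of numbered libraries used two-sided exact permutation tests over libraries, with Benjamini-Hochberg adjustment over the 3 antibody pairs. With so few libraries, an IAA comparison of 2 against 2 cannot give a p below 0.333. Named gene ends were, for each antibody, side and call, the 4 with the highest fold rank within their own lists, leaving out chromosome 8. The members, gene lists and rules were chosen with earlier results of these data known. The same replicate number did not pair libraries: deviations across gene ends correlated at r = -0.0524 for Pol II, 0.0032 for Tyr1P and -0.0358 for Ser2P. Alternatives covered a stricter q, equal list lengths, other zone limits, other ways to set sides, removal of summits in other RefSeq genes and leaving out each library. Keeping only genes oriented alike by Pol II and strand, and only zone peaks with 1 gene end within 5 kb, were alternatives chosen after seeing the data. The code was tested on simulated data. Python 3.11.15, numpy 2.4.6, pandas 2.3.3, scipy 1.17.1 and matplotlib 3.10.9 were used.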

Additional observations from a re-analysis of the deposited data

Results flagged for a closer look

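The contrast of IAA with Control in the number of zone peaks differed between antibodies in 3 cases, each tested by permuting antibody labels within treatment. The log2 ratio of all zone peaks was 1.53 higher for Ser2P than for Tyr1P. For downstream zone peaks it was 1.93 higher for Ser2P than for Pol II and 1.504 higher for Ser2P than for Tyr1P. Each had p = 0.0556 by the exact permutation test, the smallest of its 36 arrangements. Ser2P lists were longer with IAA (99001 and 88503 peaks) than in Control (37013 and 15270), and with lists of equal length the Ser2P ratios turned negative, at -0.43 for all and -0.64 for downstream zone peaks.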

How the results depend on the processing

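The mean downstream share was lower with IAA under all alternatives run, though the Tyr1P groups overlapped with lists of equal length. The difference ranged from -33.4 to -19.4 points for Pol II, -14.9 to -4.36 for Tyr1P and -9.97 to -7.24 for Ser2P. Results on zone peak number and share were less stable. At a deposited −log10 q of at least 5, the zone share differed by -0.175 points for Pol II and -0.433 for Tyr1P, gained ends were 91 for Pol II and 137 for Tyr1P, and lost Ser2P ends 58. With lists of equal length, the log2 ratio of zone peaks was 0.26 for Pol II, 0.30 for Tyr1P and -0.43 for Ser2P, against edge peaks 0.33, 0.25 and -0.44, and downstream 0.37 for Tyr1P and -0.64 for Ser2P. Lost ends were then 139, 221 and 367, and gained Ser2P ends 236. With an inner limit of 2 kb, Pol II gained 81 and lost 164 ends, Tyr1P gained 172 and lost 270, and Ser2P lost 43. Without summits in other RefSeq genes, the Tyr1P zone share differed by -0.0058 points. Beyond the construction of each alternative (fewer peaks, a narrower zone), the cause was not tested. Over the other alternatives, 315 values of the main comparisons held direction and size class, 12 moved and 11 reversed.

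Leaving out 1 library at a time gave, for Pol II, log2 ratios of zone peaks of -0.68 to 0.15, against edge peaks of -0.40 to 0.23, zone share differences of -0.545 to 0.940 points, and 174 to 534 gained and 299 to 631 lost ends. For Tyr1P the zone share differed by -0.311 to 0.405 points, with 329 to 607 gained and 640 to 882 lost ends. For Ser2P 2318 to 3795 ends were gained and 135 to 812 lost. With the replicate number as a block, the downstream share differed by -28.9, -12.00 and -9.18 points, and the log2 ratio of Pol II zone peaks was -0.24. The smallest p the pairing can give is 0.5, and no direction changed under the block. Depth limits weak peaks: a gene end without a listed peak is not an end without Pol II.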
